A study of Mus musculus with 4 samples.

Results

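The serpins are a family of protease inhibitors, and the genes described here were all those whose probes carried a name beginning with Serpin in the scanner files. There were 75 such probes for 56 genes, among 41174 probes in all. A gene was kept for the comparison if a probe was well above background, by the scanner software's own flag, on both arrays of at least 1 group. This left 39 Serpin genes of 17550 genes tested, and the other 17 are named below without a fold. The clade letter in each name, from A to I, was used to group them. 3 of the kept genes were well above background on both arrays of 1 group only, so their counts cannot stand for all members of the family.

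Most serpins stop a protease by offering an exposed loop as bait: the protease cuts the loop, the serpin snaps into a new shape and the enzyme is trapped in a covalent complex that is then degraded. Clade A serpins are mostly secreted and many are plasma proteins, clade B serpins lack a classical signal peptide and act mainly inside cells, and several are abundant in stratified epithelium. A few members have lost inhibition and serve other ends, among them a collagen chaperone and hormone carriers. In skin, serpins act beside kallikreins, cathepsins, granzymes and the plasminogen system, which take part in desquamation, matrix turnover and defence.

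The samples were RNA of full-thickness dorsal skin from male mice aged 42 days, which the labels place in telogen, when hair follicles rest. In the group called cKO, Fgf18 was conditionally deleted in epithelial cells that express keratin 5; the sources used here do not name the recombinase line. The control group, called WT, was C57BL/6, the strain that the labels give for both groups. PolyA RNA from 3 mice was combined into 1 pool per group and read on 2 arrays with a single dye, so the 2 arrays of a genotype are technical duplicates. Every SD, SE and p-value below therefore compares 2 pools of RNA and carries no spread between mice. In whole skin, fewer cells of a type and less RNA per cell cannot be told apart.

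The label of telogen was checked against markers of hair growth, which resting follicles should lack. All 15 tested hair shaft and matrix markers rose in cKO. Of these, 5 were well above background on neither WT array, so no median fold is given. Their summed scaled level was 122 to 123 in cKO and 1.32 to 1.34 in WT. The cKO pool thus read high for markers that telogen skin should lack, against its label, and each result below rests on that pool. Their part in the serpin results was not tested. Fgf18 itself read 5096 and 5293 for the cKO duplicates and 5748 and 6076 for the WT duplicates, and its change of log2 -0.33 (SE 0.0251; adjusted p from limma = 0.0035) was below 1.5-fold. Where its probe lies relative to the deleted part is not given in the labels, and other cells keep the gene, so this value checks the deletion only weakly.

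The 75th percentile of the processed signal lay between 1271 and 1453, and the share of spots well above background between 62.1% and 69.1%. Only 2 arrays per pool limit the precision. Across genes, which are not independent replicates, duplicates correlated at r = 0.997 and 0.996, and arrays of different pools at no more than 0.964. Levels are given as processed signal, in scanner units, and as a scaled log2 level, which is the log2 signal minus the 75th percentile of its array. Signals are not scaled between arrays, and the cKO arrays had the higher 75th percentiles, so a ratio of signals is not the change. A gene was called, and is said to have risen or fallen in cKO, if limma gave it an adjusted p under 0.05 over all genes tested and its pools differed by 1.5-fold or more. The level of one gene cannot be set against that of another, because probes differ in how well they bind.

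The probes that read 5 fallen clade B genes are shown first, because these genes come in close families and the sequence shows what each probe was built to read. Each is the 60-base probe as the array carries it, in lower case throughout, and each has at least 1 reading frame without a stop codon.
Serpinb1a: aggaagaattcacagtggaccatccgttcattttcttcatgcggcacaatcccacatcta
Serpinb1b: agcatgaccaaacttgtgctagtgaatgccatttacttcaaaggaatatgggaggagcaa
Serpinb1c: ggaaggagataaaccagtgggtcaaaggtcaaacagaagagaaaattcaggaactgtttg
Serpinb6a: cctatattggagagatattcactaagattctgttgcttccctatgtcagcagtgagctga
Serpinb12: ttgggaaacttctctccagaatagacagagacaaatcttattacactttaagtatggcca
On mm9 they lie at chr13:32934722-32934781, chr13:33183225-33183284, chr13:32976212-32978061, chr13:34010654-34010713 and chr1:108846179-108846238. The Serpinb1c probe spans 1850 bases of the genome, so it crosses an intron. The Serpinb12 probe is the second of its gene and the only one of the 5 that is not the brightest. Gene models of mm9 were not used here, so the exon under each probe is not stated. No pair of kept probes of different Serpin genes shared more than 13 bases in a row, among 1166 pairs, and that longest run joined probes of Serpinb1b and Serpinc1. The probes were compared with each other only and not with transcripts, so binding to other members of a close family was not tested.

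Promoter windows, from 250 bases before to 50 after the gene's start in RefSeq (build GRCm38.p6), were matched for 31 of the 39 tested genes. They are shown for Serpina1d, which had the largest rise among members measured well above background on all 4 arrays, and for Serpinb12, which had the largest fall. Capitals mark matches, on either strand, to TATAAA (the TATA box), to CCAAT (the CCAAT box), to TGACTCA (the AP-1 motif) or to GAANNTTC (part of the heat shock motif).
Serpina1d: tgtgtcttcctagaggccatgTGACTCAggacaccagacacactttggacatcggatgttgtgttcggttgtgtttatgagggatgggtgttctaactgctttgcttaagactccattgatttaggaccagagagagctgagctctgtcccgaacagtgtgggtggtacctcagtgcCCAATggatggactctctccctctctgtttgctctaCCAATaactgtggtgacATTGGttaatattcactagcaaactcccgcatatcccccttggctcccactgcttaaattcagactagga
Serpinb12: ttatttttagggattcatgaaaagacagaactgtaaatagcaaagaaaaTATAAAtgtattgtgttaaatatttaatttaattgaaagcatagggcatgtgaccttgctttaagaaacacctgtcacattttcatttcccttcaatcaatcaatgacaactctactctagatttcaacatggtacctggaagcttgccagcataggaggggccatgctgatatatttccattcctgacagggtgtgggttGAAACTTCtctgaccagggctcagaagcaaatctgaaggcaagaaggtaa
The Serpina1d window is chr12:103773584-103773883 on the minus strand and the Serpinb12 window, 1 of 2 listed for the gene, is chr1:106938707-106939006 on the plus strand. The Serpina1d window holds 1 match to TGACTCA and 3 to CCAAT. The Serpinb12 window holds 1 match to TATAAA and 1 to GAANNTTC. Over the 54 windows of Serpin genes on the array, TATAAA was found in 33.3%, against 13.6% of all 32851 windows. CCAAT was found in 31.5% against 37.4%, TGACTCA in 9.26% against 5.20% and GAANNTTC in 11.1% against 7.86%. These matches are a description of the letters and not of bound factors.

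Serpin genes were called in both directions, with 4 of the risen ones in clade A and 6 of the fallen ones in clade B. Of the 39 genes, 6 rose in the cKO pool (15.4%, against 5.68% of all genes tested) and 8 fell (20.5%, against 4.81%). With quantile normalization, 6 rose and 5 fell. The risen genes were Serpina11, Serpina1d, Serpina9, Serpini1, Serpina3f and Serpinc1. The fallen genes were Serpinb12, Serpina12, Serpinb1c, Serpinb1b, Serpinh1, Serpinb3a, Serpinb1a and Serpinb6a. Serpina11 and Serpini1 were kept through the cKO arrays alone and Serpinb3a through the WT arrays alone. The median log2 change of all 39 was -0.29, against -0.051 over all genes tested, and 29 lay below 0. Of all 17550 genes tested, 10012 lay below 0, and each count of that kind below is to be read beside this number. In 36 genes the cKO and WT arrays did not overlap (92.3%), and this held for 81.9% of all genes tested. Without a minimum on the fold, 8 Serpin genes passed at the adjusted p in the upward direction and 23 in the downward direction. The share of all genes that pass by p alone was not counted, here or below. Such counts therefore cannot be read as a trait of the family or of a list. At 2-fold, 3 passed upward and 0 downward; at an unadjusted p under 0.05, before any fold minimum, the downward count was 26.

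**Figure D1:**
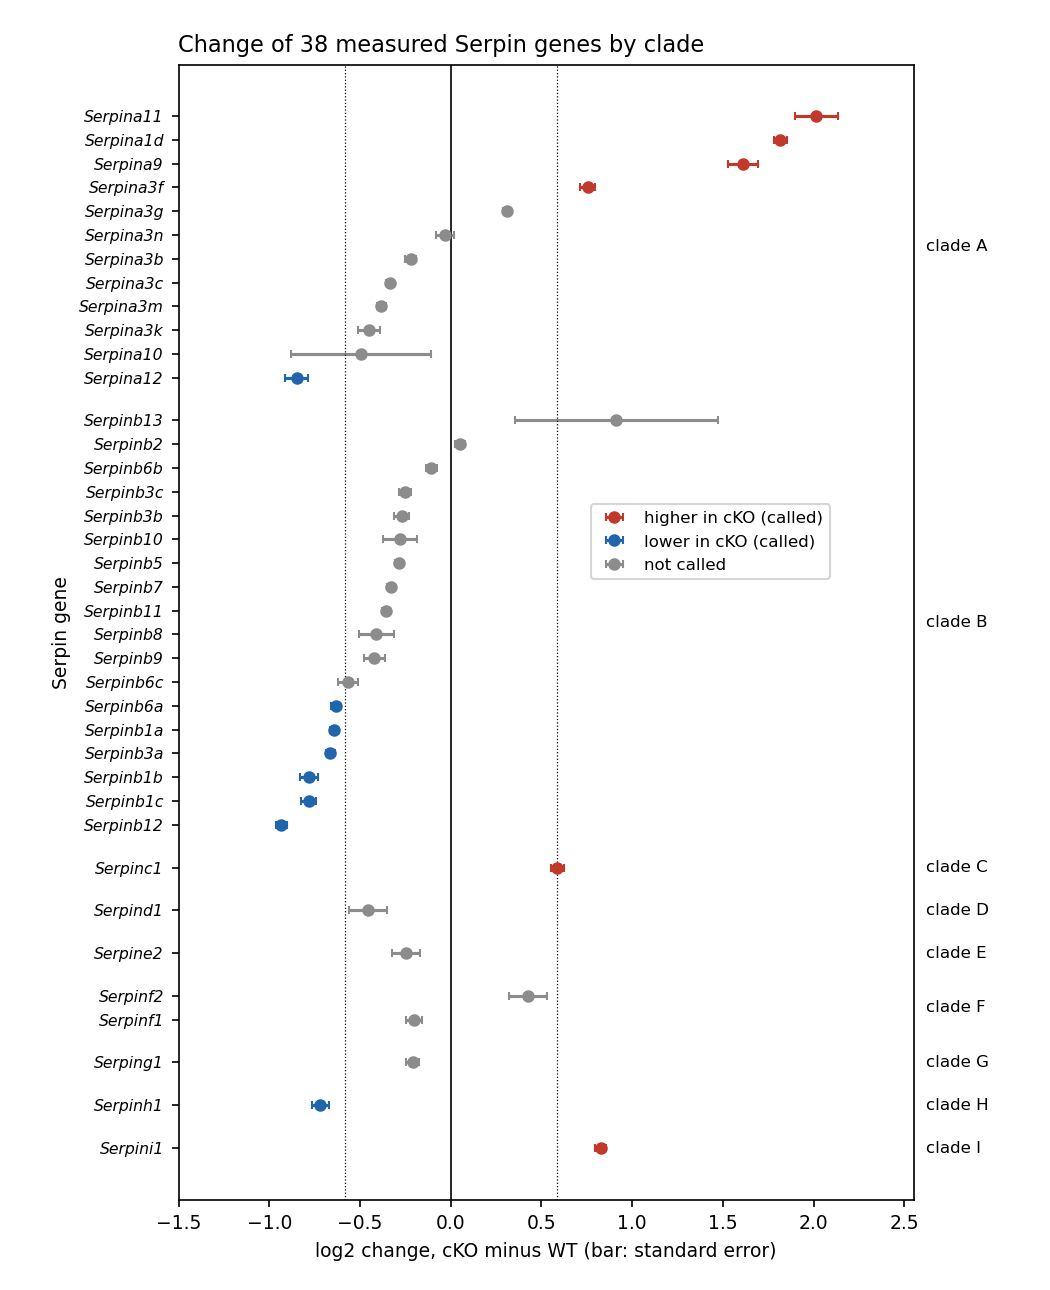
Each point is the log2 change of 1 of 38 Serpin genes between the cKO and WT pools (x axis), grouped by clade (y axis), with the standard error as a bar and dotted lines at 1.5-fold. The 4 risen clade A genes lie to the right, the 6 fallen clade B genes to the left, and Serpinb13 and Serpina10 have the longest bars; the point of Serpina11 is a fitted value from signals near background and gives no size.

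Clade A, the secreted antiprotease group, held 4 of the risen genes. Of its 20 genes on the array 12 were tested, with a median log2 change of -0.13. Of these 4 rose (33.3%, against 5.68% of all genes tested) and 1 fell (8.33%, against 4.81%). The 4 include Serpina11, which was kept through its cKO arrays alone. Changes ran from -0.85 in Serpina12 to 1.82 in Serpina1d among those well above background on all arrays. The 7 tested Serpina3 genes had a median of -0.22. Of the other 5, 3 were risen and 1 fallen, counting the call of Serpina11. No median is given for these 5, because the change of Serpina11 has no usable size.

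Serpina1d is a mouse copy of alpha-1-antitrypsin, the plasma inhibitor of neutrophil elastase. Its processed signal was 484 and 518 for the cKO duplicates and 129 and 129 for the WT duplicates. Both cKO arrays lay far above both WT arrays, and the duplicates lay close together. Scaled log2 levels averaged -1.51 ± 0.0322 for cKO and -3.33 ± 0.0398 for WT (SD of 2 arrays), and the change was log2 1.82 (SE 0.0354; adjusted p from limma = 0.00059), or 3.52-fold higher. The probe (NM_009246) lies on chromosome 12, 105001833 to 105001892 on mm9. Probes of the other copies read near background: Serpina1b was well above it on 1 array, and Serpina1c on 0.

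Serpina9, known as centerin from germinal centre B cells, rose 3.06-fold. The processed signal was 201 and 223 for the cKO duplicates and 65.8 and 59.9 for the WT duplicates. The pools did not overlap. Scaled log2 levels averaged -2.75 ± 0.0661 for cKO and -4.36 ± 0.130 for WT (SD of 2 arrays), and the change was log2 1.61 (SE 0.0823; adjusted p from limma = 0.002). With normexp background correction and quantile normalization it was 1.03 and still called. The probe (NM_027997) lies on chromosome 12, 105235151 to 105235210 on mm9.

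Serpina11 read 34.97 and 31.9 for the cKO duplicates and 6.76 and 8.28 for the WT duplicates. It was well above background on both cKO arrays and on neither WT array. The fit gave an adjusted p of 0.0024, but the cKO level (-5.42) was below the lowest level that counted as well above background on the WT arrays (-5.25 and -5.00), so no fold can be given. After normexp correction and quantile normalization, the fitted log2 change was 0.34 and the gene was not called.

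The mouse Serpina3 genes are an expanded family related to human alpha-1-antichymotrypsin. Among those named so in the scanner files, Serpina3f alone was called. It read 452 and 461 for the cKO duplicates and 234 and 257 for the WT duplicates, so that each cKO array exceeded each WT array. The change was log2 0.75 (SE 0.0420; adjusted p from limma = 0.0022), or 1.69-fold higher, and its other probe gave 0.59. Its neighbour Serpina3g, an intracellular inhibitor of cysteine cathepsins, read 7146 and 7384 for the cKO duplicates and 5226 and 5391 for the WT duplicates, a log2 change of 0.31 that missed the fold threshold. The remaining members had small negative values: -0.22 for Serpina3b, -0.33 for Serpina3c, -0.45 for Serpina3k and -0.38 for Serpina3m. Serpina3n, an acute-phase inhibitor of granzyme B, had -0.03 (SE 0.0494), and its pools overlapped. Its sign turned in 2 settings. A probe listed in the files as Gm4931, which RefSeq now calls Serpina3j, is no member by name. It met the call as fallen, with log2 -0.68 (adjusted p = 0.0013, limma).

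Serpina12, or vaspin, an adipokine that inhibits the skin protease kallikrein 7, was the only clade A member by name that fell. Its signal was 174 and 190.4 for the cKO duplicates and 279 and 315 for the WT duplicates. The lowest WT array lay well above the highest cKO array. Scaled log2 levels averaged -2.97 ± 0.0573 for cKO and -2.13 ± 0.0917 for WT (SD of 2 arrays), and the change was log2 -0.85 (SE 0.0626; adjusted p from limma = 0.0033), or 1.80-fold lower. Klk7 itself had 0.17 (adjusted p = 0.024, limma), under the fold threshold. Of 10 adipocyte markers 4 fell (40.0%, against 4.81% of all genes tested), with a median of -0.37. Their summed scaled level was 267 on both cKO arrays and 275 to 276 in WT. Lep had the largest fall of the list (log2 -0.97). The part of fat in the fall of Serpina12 was not tested. Serpina10, an inhibitor of coagulation factor X, read 55.9 and 30.4 for the cKO duplicates and 45.3 and 61.0 for the WT duplicates and had -0.49 with an SE of 0.386; its arrays overlapped.

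Of the risen serpins, Serpina1d, Serpina11 and Serpinc1 are best known as liver products. Among these, Serpina11 has no usable size, and the second probe of Serpinc1 gave a log2 change of -0.20. Other inhibitors of coagulation, plasmin or complement described here had values in both directions and were not called. They included Serpina10 (log2 -0.49), Serpind1 (-0.46), Serping1 (-0.21) and Serpinf2 (0.43). Of 9 liver and plasma markers 2 were tested, Alb and Ahsg, with log2 changes of -0.56 and -0.0064, and Apoa1, Apoa2, Ttr, Fga, Fgb, Fgg and Ambp were not well above background on both arrays of either group. The summed scaled level of the 2 tested markers was 0.0919 to 0.0979 in cKO and 0.119 to 0.121 in WT. The part of liver or plasma RNA in the serpin results was not tested.

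**Figure D2:**
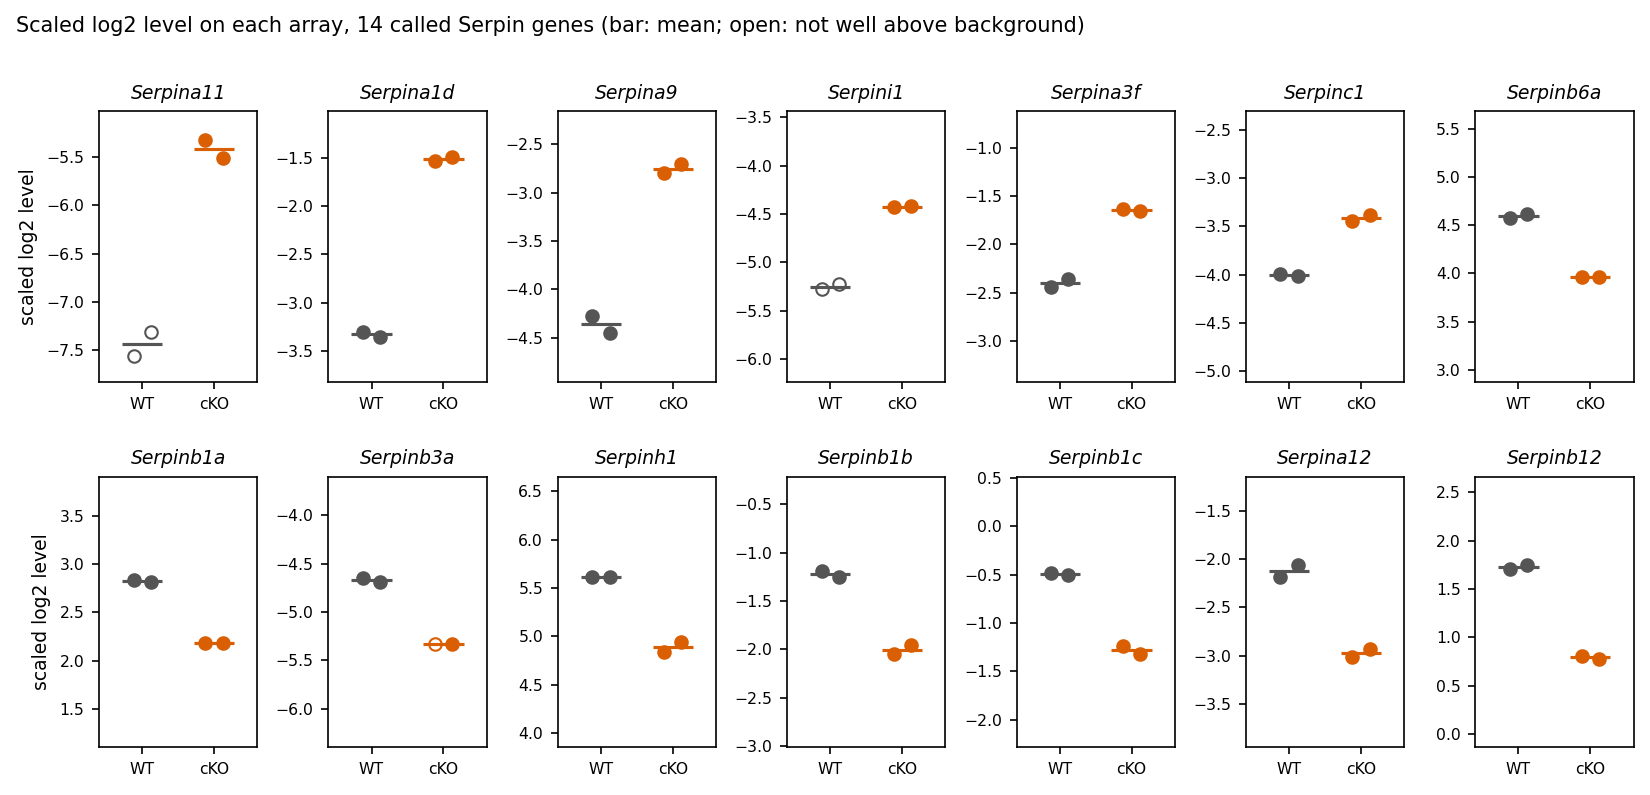
Each panel is 1 of the 14 called Serpin genes, ordered from the highest to the lowest fitted change, with the scaled log2 level on each WT and cKO array as points and the group mean as a bar; every y axis covers the same number of log2 units, placed around its gene. Open points were not well above background: both WT arrays of Serpina11 and Serpini1, and 1 cKO array of Serpinb3a. In all 14 the arrays of the pools did not overlap.

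Clade B, the intracellular serpins that include the epidermal inhibitors, had lower values in cKO for most members. Of 25 genes on the array 18 were tested, 0 rose and 6 fell (33.3%, against 4.81% of all genes tested). By the brightest kept probe 16 of the 18 had a change below 0, as did 10012 of all 17550 genes tested. The second probes of Serpinb8 and Serpinb9 gave 0.24 and 0.0028. At an unadjusted p under 0.05, before any fold minimum, 0 clade B genes were upward. The median log2 change was -0.38, against -0.051 over all genes tested. With quantile normalization 4 clade B genes fell, because Serpinb1a and Serpinb6a then missed the fold threshold.

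Serpinb12, or yukopin, an epithelial inhibitor of trypsin-like proteases, had the largest fall of the family. Its signal was 2456 and 2494 for the cKO duplicates and 4145 and 4431 for the WT duplicates. Every WT array exceeded every cKO array by a wide margin. Scaled log2 levels averaged 0.79 ± 0.0206 for cKO and 1.73 ± 0.0334 for WT (SD of 2 arrays), and the change was log2 -0.93 (SE 0.0306; adjusted p from limma = 0.0012), or 1.91-fold lower. The second probe, printed above, read 157 and 148 in cKO and 231 and 278 in WT, a log2 change of -0.88. Over all settings the change of Serpinb12 ran from -0.96 to -0.87.

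The 3 Serpinb1 genes, mouse relatives of the human monocyte and neutrophil elastase inhibitor, fell by similar amounts. Serpinb1a, which inhibits elastase, cathepsin G and proteinase 3, read 6378 and 6584 for the cKO duplicates and 9089 and 9255 for the WT duplicates. Both WT values were higher, and the duplicates differed little. The change was log2 -0.64 (SE 0.0239; adjusted p from limma = 0.0014), or 1.56-fold lower. Serpinb1b read 338 and 375 for the cKO duplicates and 556 and 552 for the WT duplicates, with log2 -0.78 (SE 0.0488; adjusted p from limma = 0.0026). Serpinb1c read 595 and 582 for the cKO duplicates and 908 and 927 for the WT duplicates, with log2 -0.78 (SE 0.0394; adjusted p from limma = 0.002), and its second probe gave -0.67. With quantile normalization Serpinb1a had -0.56 and was not called, while Serpinb1b and Serpinb1c kept their calls in every setting.

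Proteinase 3 and cathepsin G, known targets of Serpinb1a, were measured on the same arrays. Prtn3, or proteinase 3, fell (log2 -0.71, adjusted p = 0.0021, limma). Ctsg, or cathepsin G, had 0.18, and Elane was not tested. Of 8 neutrophil markers 3 were tested, Mpo rose and S100a9 fell, and Ly6g, Cxcr2, Ngp, Retnlg and Camp were not well above background on both arrays of either group.

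Serpinb6a, a broadly expressed inhibitor of cathepsin G and trypsin-like proteases, also fell. It read 21875 and 22605 for the cKO duplicates and 30396 and 32142 for the WT duplicates. The WT arrays were the higher pair. The change was log2 -0.63 (SE 0.0251; adjusted p from limma = 0.0015), or 1.55-fold lower, and it was -0.51 and not called with quantile normalization. Of its relatives, Serpinb6c read 2256 and 2385 for the cKO duplicates and 2922 and 3314 for the WT duplicates. Its pools did not overlap, but the change of log2 -0.57 (SE 0.0564; adjusted p from limma = 0.0056) stood just under the fold threshold, and it was called without WT replicate 1 (-0.63). Serpinb6b had -0.11, and a probe listed as Gm11390, now Serpinb6d in RefSeq and no member by name, had -0.48.

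Serpinb3a, a squamous cell carcinoma antigen that inhibits cysteine proteases, fell close to the detection limit. It read 34.7 and 36.2 for the cKO duplicates and 50.6 and 51.0 for the WT duplicates. It was well above background on both WT arrays but on only 1 cKO array. The change was log2 -0.66 (SE 0.0265; adjusted p from limma = 0.0015), or 1.58-fold lower, and shrank to -0.25, not called, with normexp and quantile normalization. Its relatives Serpinb3b and Serpinb3c had -0.27 and -0.25.

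The best known epidermal members of the clade stayed under 1.5-fold. Serpinb5, or maspin, a non-inhibitory serpin of epithelial cells, read 45147 and 46507 for the cKO duplicates and 49393 and 51825 for the WT duplicates and had log2 -0.29 (SE 0.0236; adjusted p from limma = 0.004). Serpinb7, or megsin, whose loss causes a keratoderma in people, had -0.33, and Serpinb11 had -0.36. Serpinb2, plasminogen activator inhibitor 2, read 7889 and 8189 for the cKO duplicates and 6987 and 7071 for the WT duplicates; its 2 probes gave 0.051 and 0.087. Serpinb2 and Serpinb13 were the only tested clade B genes with a change above 0 by the brightest kept probe. Serpinb8, an inhibitor of furin, had -0.41, but its second probe gave 0.24, so the gene has no settled direction. Serpinb9, the granzyme B inhibitor that shields cytotoxic lymphocytes, had -0.42 by the brighter probe and 0.0028 by the other, and Serpinb10 had -0.28 (adjusted p = 0.08, limma).

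Serpinb13, or headpin, an inhibitor of cathepsin L, was decided by 1 array. It read 146 and 414 for the cKO duplicates and 117 and 119.9 for the WT duplicates. The second cKO array was high, and the first was close to WT. The log2 change was 0.91 with an SE of 0.557 and was not called (limma adjusted p = 0.24). Without cKO replicate 2 it was 0.19, and without cKO replicate 1 it was 1.64 and called.

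Many suprabasal markers also had lower values in cKO, although none of these passed the fold threshold. All 8 basal markers, Krt5 and Krt14 among them, were measured, 0 rose and 0 fell (median -0.075; 5 had a value below 0). Of 14 suprabasal markers 2 rose, Tgm3 and Krt2 (14.3%, against 5.68% of all genes tested), and 0 fell (against 4.81%). Their median was -0.25, and 10 had a value below 0. In lists as short as these 2, a count of 0 called says little about the markers. At the adjusted p from limma alone, 9 of the 14 passed downward, beside 14 of the 18 clade B genes, with the share over all genes not counted. The summed scaled level of the suprabasal markers was 659 to 673 in cKO and 791 to 851 in WT, a sum carried by the brightest probes. The part of epidermal content in the clade B changes was not tested.

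The tested clade A and clade B genes lie in 3 chromosomal clusters, which the clade letter alone does not give. Of the clade B genes tested, the 11 on chromosome 1 had a median log2 change of -0.29, against -0.051 over all genes tested. Of these 2 fell (18.2%, against 4.81% of all genes tested), Serpinb12 and Serpinb3a. The 7 on chromosome 13 had a median of -0.63 with 4 fallen (57.1%, against 4.81%). By the brightest kept probe each of the 7 had a change below 0, from -0.11 in Serpinb6b to -0.78 in Serpinb1c. The second probe of Serpinb9 gave 0.0028. The chromosome 13 probes span 1076 kb on mm9 and the chromosome 1 probes 723 kb. On chromosome 12, Serpina1d, Serpina11 and Serpina9 followed each other among the tested genes, and the probes of Serpina11 and Serpina9 lie 14.04 kb apart. The next tested gene, Serpina12, 31.9 kb further on, fell. The clusters were compared by counts and medians only, and no difference between them was tested.

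**Figure D3:**
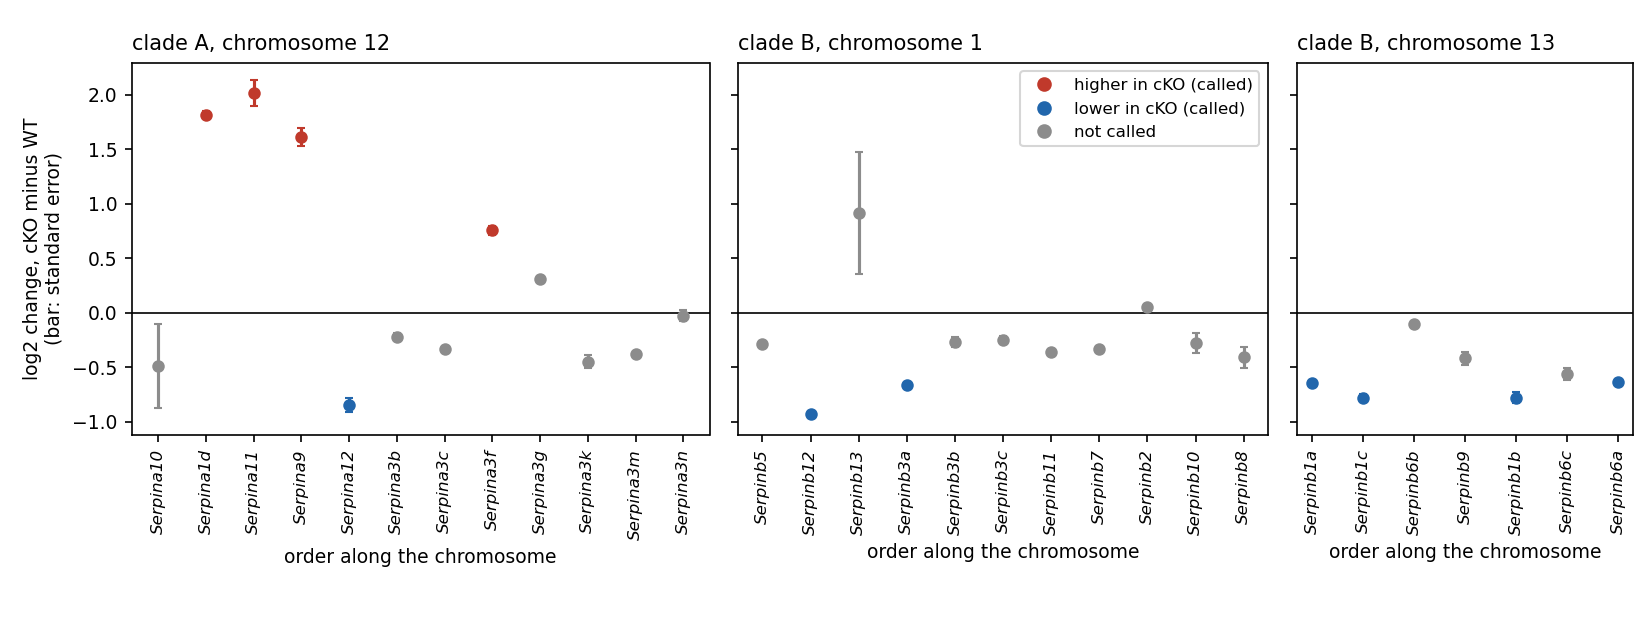
The log2 change of each tested clade A and clade B gene (y axis, bar: standard error) is plotted in the order of its probe along chromosome 12, 1 or 13 (x axis). Risen genes stand on chromosome 12 only, and all 7 points on chromosome 13 lie below 0; the point of Serpina11 gives a fitted value and no size.

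The remaining clades hold 1 or a few genes each, and of 11 genes on the array 9 were tested. Among these 2 rose (22.2%, against 5.68% of all genes tested) and 1 fell (11.1%, against 4.81%). The risen ones were Serpini1, kept through its cKO arrays alone, and Serpinc1, whose 2 probes differed in sign. Their share therefore cannot be read as a trait of these clades. The clade H gene Serpinh1 encodes a chaperone of the endoplasmic reticulum that binds procollagen and inhibits no protease. It read 40195 and 44709.9 for the cKO duplicates and 62088 and 64223 for the WT duplicates. Both WT arrays were well above both cKO arrays, although the cKO duplicates differed more than the WT ones. Scaled log2 levels averaged 4.89 ± 0.0724 for cKO and 5.61 ± 0.000311 for WT (SD of 2 arrays), and the change was log2 -0.72 (SE 0.0450; adjusted p from limma = 0.0026), or 1.64-fold lower. With quantile normalization it was -0.57 and not called.

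Most genes that work with Serpinh1 had lower values in cKO, and few passed the fold threshold. Of 19 tested fibrillar collagens and collagen-folding genes 3 fell (15.8%, against 4.81% of all genes tested) and 1 rose (5.26%, against 5.68%). The median was -0.29, and 17 of the 19 lay below 0, as did 10012 of all 17550 genes tested. At the adjusted p from limma alone, 14 passed downward and 2 upward, with the share over all genes not counted. The fallen genes were the prolyl hydroxylase subunit P4ha2 (log2 -0.83) and the collagen-binding prolyl isomerases Fkbp10 (-0.60) and Fkbp14 (-0.60). Col11a1 rose (log2 1.96). The main clients Col1a1, Col1a2 and Col3a1 had -0.13, -0.082 and -0.13, and none was called.

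Serpini1, or neuroserpin, an inhibitor of tissue plasminogen activator best known from neurons, was higher in cKO. It read 65.1 and 68.1 for the cKO duplicates and 32.8 and 35.2 for the WT duplicates. It was well above background on both cKO arrays and on neither WT array, so its fold is given only as a bound, 1.63-fold (limma adjusted p = 0.0014). This bound sets the cKO mean against, per WT array, the higher of the probe's own level and the lowest level well above background. The bound is approximate, because a spot can read above that lowest level and still miss the flag. The Serpinb9d probe did so on WT replicate 2, at 52.8, where the lowest signal well above background was 41.1. The measured means of Serpini1 were -4.42 in cKO and -5.25 in WT. After normexp correction and quantile normalization Serpini1 missed the threshold, with 0.38 on the log2 scale, where the bound is 0.70. Of 7 nerve and Schwann cell markers tested 2 fell (28.6%, against 4.81% of all genes tested) and 0 rose, with a median of -0.50. Their part in the result for Serpini1 was not tested.

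Serpinc1, antithrombin, stood just inside the threshold. It read 128 and 139 for the cKO duplicates and 79.8 and 81.5 for the WT duplicates, and the pools did not overlap. The change was log2 0.59 (SE 0.0348; adjusted p from limma = 0.0024), or 1.503-fold higher, but its second probe read 64.9 and 77.7 in cKO and 74.8 and 72.6 in WT, a log2 change of -0.20. The 2 probes of the gene thus differed in sign, and the call was lost in 5 settings, among them the mean of the probes (0.20), without cKO replicate 2 (0.55) and without WT replicate 2 (0.58). Serpind1, a heparin cofactor, which also inhibits thrombin, had log2 -0.46 (SE 0.105; adjusted p from limma = 0.035) and was called without cKO replicate 2 (-0.59).

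Serpine2, or protease nexin 1, a clade E inhibitor of thrombin and plasminogen activators known from the dermal papilla, was not called. It read 785 and 906 for the cKO duplicates and 855 and 959 for the WT duplicates and had log2 -0.24 (SE 0.0775; adjusted p from limma = 0.071); the signals overlapped but the scaled levels did not. Among its targets, tissue plasminogen activator (Plat) had -0.03 and urokinase (Plau) -0.51. Of 5 tested genes of plasminogen activation 0 were called, against 10.5% of all genes tested (limma, 4 had an unadjusted p under 0.05).

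Serpinf1, pigment epithelium-derived factor, a secreted protein that limits vessel growth without inhibiting a protease, read 104793 and 107322 for the cKO duplicates and 105025 and 116548 for the WT duplicates. Its change of log2 -0.20 (SE 0.0450; adjusted p from limma = 0.032) was small, and its sign turned with quantile normalization. Serpinf2, the plasmin inhibitor alpha-2-antiplasmin, had log2 0.43 (SE 0.104; adjusted p from limma = 0.04), the highest value among members that missed the fold threshold at an adjusted p under 0.05. Serping1, the C1 inhibitor of complement, read 36109 and 35758 for the cKO duplicates and 36545 and 38763 for the WT duplicates and had -0.21. Around the fold threshold, the members just inside were Serpinc1 (0.59), Serpinb6a (-0.63), Serpinb1a (-0.64) and Serpinb3a (-0.66). Those just outside were Serpinb6c (-0.57), Serpind1 (-0.46), Serpina3k (-0.45) and Serpinf2 (0.43).

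The 17 Serpin genes left out had no probe well above background on both arrays of a group. In clade A these were Serpina1b, Serpina1c, Serpina1f, Serpina3a, the pseudogene Serpina4-ps1, Serpina5 (protein C inhibitor) and the hormone carriers Serpina6 and Serpina7, which bind corticosteroid and thyroxine in plasma. In clade B they were Serpinb3d and the Serpinb9 relatives Serpinb9b to Serpinb9g. Serpine3 and Serpini2 completed the set. Serpina1b, Serpina4-ps1, Serpinb3d and Serpinb9b were well above background on 1 array each, and the other 13 on 0. Among the tested genes 10 had more than 1 kept probe, and the probes differed by 0.5 or more on the log2 scale in Serpinb8 and Serpinc1. The sign differed in 3 genes, Serpinb8, Serpinb9 and Serpinc1.

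**Figure D4:**
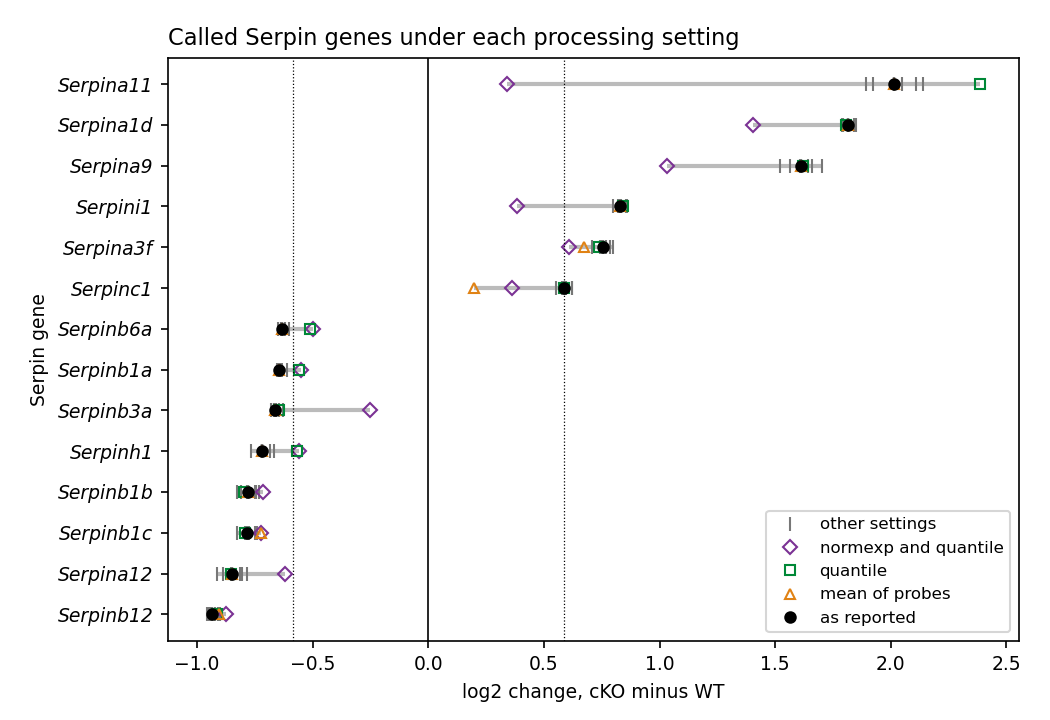
For each of the 14 called Serpin genes (y axis), the log2 change between pools (x axis) is plotted as reported and under every other processing setting, with a line over the range and dotted lines at 1.5-fold. The changes of Serpinb12, Serpinb1b, Serpinb1c, Serpina12, Serpina3f, Serpina9 and Serpina1d stay outside the dotted lines, and the others cross inside in at least 1 setting.

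The proteases that serpins are known to restrain were read on the same arrays. Of 11 tested kallikreins, serine proteases of the outer epidermis, 3 rose (27.3%, against 5.68% of all genes tested) and 0 fell. The risen ones were Klk12 (log2 1.35), Klk10 (1.28) and Klk6 (1.01), and the list median was 0.17. Of 11 cysteine cathepsins and legumain 0 were called, against 10.5% of all genes tested (limma, 7 had an unadjusted p under 0.05). The median was -0.20, and Ctsl had -0.20. Of 17 thrombin and plasma serine protease genes 2 rose (11.8%, against 5.68%) and 1 fell (5.88%, against 4.81%). The coagulation factor F12 was not well above background in WT and was higher in cKO, with an approximate bound of 1.67-fold, set as for Serpini1. Masp2 of the complement lectin pathway rose (log2 1.06), and the thrombin cofactor thrombomodulin (Thbd) fell (-0.62). Of 9 leukocyte and mast cell serine proteases 2 fell (22.2%, against 4.81%), Prtn3 and the mast cell chymase Cma1 (-0.69), and Gzmb was not tested. Of 12 membrane proteases and proprotein convertases 1 rose (8.33%, near the 5.68% of all genes tested), matriptase (St14, 0.68). Furin, the target of Serpinb8, had -0.019.

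Among protease inhibitors of other families the fallen genes included some but not all stefins and metalloproteinase inhibitors. Of 32 tested, 9 fell (28.1%, against 4.81% of all genes tested) and 1 rose (3.12%, against 5.68%), with a median of -0.21. The largest falls were those of the stefins Stfa2 (log2 -1.58) and Stfa1 (-0.84), which inhibit cysteine proteases, and of the metalloproteinase inhibitors Timp4 (-0.87) and Timp1 (-0.78). Stfa2l1 (-0.56), Cstb (0.11), Timp2 (-0.071) and Timp3 (-0.20) were not called. Spint1, which inhibits matriptase, rose (0.73). Stefin genes have near-identical copies, and which copy a probe read is uncertain.

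Markers of other cell types in skin were called in both directions. Over all genes tested 5.68% rose and 4.81% fell. Besides the 15 hair shaft and matrix markers, 6 of 7 inner root sheath markers and 6 of 7 melanocyte markers rose. Markers that fell included 3 of 10 for skeletal muscle (median -0.48), 3 of 7 for sebaceous gland (-0.49) and 2 of 9 for endothelium (-0.30). In mast cells 2 of 7 fell and 1 rose, in fibroblasts 1 of 9 fell and 1 rose, and in T and NK cells 1 of 8 fell and 1 rose. Of 9 macrophage markers 0 were called (limma; 4 had an unadjusted p under 0.05). The part of these shifts in the serpin changes was not tested.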

How the data were processed

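One-colour arrays were hybridised with Cy3-labelled RNA of 2 pools, 2 arrays each. Per the file headers, spots were quantified with Agilent Feature Extraction 10.7.3.1, which subtracted background and removed spatial trends; the deposited intensity was this processed signal. The authors' deposited value table held the same intensity as a linear ratio to 1 number per array (column medians 0.101, 0.0983, 0.0987 and 0.101), not log-transformed and not centred per gene, and served as an alternative. The sources used here name no tool for that scaling.

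The log2 intensity minus the 75th percentile over 43379 non-control spots was taken. Spots flagged as outliers were set to missing, none of them on a Serpin probe, no spot was saturated, and spots of one probe were averaged. A gene was represented by its brightest kept probe. Names came from the scanner files for Serpin genes and from a RefSeq table of assembly GRCm38.p6 for the others (26690 probes by accession, 5189 by symbol, 952 by an older symbol, 8343 kept). Probe coordinates are on mm9, per the file headers.

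The 2-sided test was limma's moderated one (version 3.58.1, R 4.3.3), with Benjamini-Hochberg adjustment. The script was tested on simulated data. Python 3.11.15 and matplotlib 3.10.9 were also used. All tested Serpin genes were named except 1, which is counted in the totals and is not reported here, with up to 4 called genes of each related list and the known targets of the serpins described. The members and lists were chosen with earlier results of these data known. All arrays share 1 slide. Alternatives covered the background correction, scaling, filter, probe summary, outlier spots, moderation, replicate block, thresholds and leaving out each array.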

Additional observations from a re-analysis of the deposited data

How the results depend on the processing

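Of the gene-level values under other settings, 546 kept their direction and call, 14 lost a call, 3 gained one and 4 turned sign. A gene that a setting did not test is not in these counts. The filter for well above background on all 4 arrays left out Serpina11, Serpini1 and Serpinb3a in this way, and 11 Serpin calls remained. With normexp and quantile normalization 3 Serpin genes were higher and 4 lower, in place of 6 and 8; with quantile normalization 5 were lower. At 2-fold 3 were higher, counting the fitted value of Serpina11, and 0 lower, and with no fold minimum 23 were lower. Over the arrays left out in turn, the count was 5 to 7 for higher and 8 to 9 for lower genes. Signs turned for Serpina3n (0.0029 with scaling on detected probes, and -0.087 to 0.027 with an array left out) and Serpinf1 (0.014 with normexp and quantile normalization and 0.043 with quantile normalization), and the cause was not tested. Leaving out an array leaves 1 in its group, which is then assumed to vary like the other group. With the replicate block, which only shares a number (r = -0.043 between same-numbered deviations), the counts were 6 and 8, and every Serpin call was kept. Over all genes tested, scaling on probes detected on all arrays gave 1062 higher and 724 lower calls, and normexp and quantile normalization 719 and 480, in place of 996 and 844. Removing the filter on dim probes moved the median log2 change over all genes to -0.16, from -0.051, and added Serpina1b to the called genes. Signals near background limit Serpina11, Serpini1 and Serpinb3a.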
